A study of Homo sapiens with 9 samples.

Results

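The genes described here were the 41 genes of the unfolded protein response and of the stress response driven by the transcription factor ATF4, out of 58219 genes quantified. They were taken by gene symbol from a fixed list and described in 2 arms. The ATF4 arm held 20 genes, namely transcription factors and regulators, enzymes of serine, one-carbon and asparagine synthesis, and tRNA synthetases. The ER arm held 21 genes, namely the stress sensors of the endoplasmic reticulum (ER) with XBP1, ER chaperones, disulfide isomerases and genes of ER-associated degradation. All 41 were expressed highly enough to be tested.

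Total RNA was sequenced from MDA-MB-231, an established human triple-negative breast cancer line, in 9 libraries, 3 in each of 3 groups. Control cells carried a lentiviral scrambled RNA. The shAPT1 cells carried a lentiviral short hairpin RNA against APT1, an enzyme that removes palmitate from proteins and is the product of LYPLA1, and were selected with puromycin. APT1wt cells overexpressed APT1wt from a lentiviral plasmid. No group with an empty overexpression vector was among the samples, so a higher APT1 level and the overexpression vector cannot be told apart. Whether control and APT1wt cells were also selected with a drug is not given in the labels. Knockdown and puromycin selection therefore cannot be told apart in shAPT1. Whether replicates were grown as separate cultures is not given in the labels, and p-values then measure only the spread between these libraries. Both comparisons with control share the same 3 control libraries. In bulk RNA, fewer cells expressing a gene and less RNA per cell cannot be told apart.

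When unfolded proteins accumulate in the ER, the sensors EIF2AK3 (PERK), ERN1 (IRE1) and ATF6 become active. EIF2AK3 and the other eIF2 kinases phosphorylate the initiation factor eIF2, which lowers protein synthesis in general and raises translation of ATF4, so that ATF4 activity is set largely at the protein level. ERN1 cuts a short intron out of the XBP1 mRNA, and spliced XBP1 and cleaved ATF6 then drive chaperone and degradation genes.

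Promoter sequences were searched for the DNA elements these factors are known to bind, and sequences are shown for some of the matches. ATF4, paired with C/EBP proteins, binds the C/EBP-ATF response element, searched as TGATGNAAN on both strands in the 250 bases before each RefSeq gene start. Among 27305 gene symbols with a RefSeq promoter (GRCh38.p14), 3.87% held this element. It was in 6 of the 17 ATF4-arm genes with an entry and in 1 of 20 ER-arm genes, HERPUD1. NUPR1, PSPH, SHMT2 and PDIA3 had no entry in the table. A gene was counted if any of its RefSeq starts had the element before it. ATF3, CEBPG, ASNS and GARS each had a further RefSeq start without it. By GENCODE coordinates, the printed windows of CEBPG, CHAC1, ASNS and GARS lie inside the gene, and those of ATF3 and AARS lie before it. Which start these cells used was not tested. The 6 windows are printed 5′ to 3′ on the gene's strand with the element in capitals, and a match describes letters only.
ATF3, chr1:212565196-212565244, plus strand: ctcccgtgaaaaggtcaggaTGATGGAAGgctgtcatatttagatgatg
CEBPG, chr19:33374051-33374099, plus strand: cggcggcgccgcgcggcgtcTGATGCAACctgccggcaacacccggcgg
CHAC1, chr15:40953241-40953289, plus strand: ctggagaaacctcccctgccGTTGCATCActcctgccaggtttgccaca
ASNS, chr7:97872448-97872496, minus strand: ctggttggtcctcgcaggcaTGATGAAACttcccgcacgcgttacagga
AARS, chr16:70289666-70289714, minus strand: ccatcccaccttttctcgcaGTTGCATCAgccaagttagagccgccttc
GARS, chr7:30594824-30594872, plus strand: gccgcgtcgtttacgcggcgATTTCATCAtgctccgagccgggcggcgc

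The ER stress response element, to which ATF6 is known to bind, was searched as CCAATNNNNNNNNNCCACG on both strands. It was in 0.0916% of the gene symbols, in 7 of the 20 matched ER-arm genes (XBP1, HSPA5, HSP90B1, CALR, CANX, CRELD2 and PDIA6) and in 0 of the 17 matched ATF4-arm genes. The windows of the main ER chaperone and of XBP1 are shown, with the element in capitals, since XBP1 is the mRNA that ERN1 splices.
HSPA5, chr9:125241371-125241429, minus strand: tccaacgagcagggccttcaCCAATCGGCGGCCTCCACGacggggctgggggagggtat
XBP1, chr22:28800583-28800641, minus strand: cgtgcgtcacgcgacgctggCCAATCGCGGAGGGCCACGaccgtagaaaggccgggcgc

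The libraries held 12381931 to 18667383 estimated reads, of which the 41 genes took 0.756% to 0.822%. LYPLA1 itself was at 87.1, 92.7 and 80.5 TPM (a length-scaled share of all transcripts) in control, 38.2, 30.5 and 36.7 TPM in shAPT1 and 169, 171 and 170 TPM in APT1wt, so the 9 libraries followed their labels. The line's markers VIM, KRT8, KRT18, CD44, EGFR and AXL were expressed in every library, and the leukocyte markers PTPRC, CD3E and ITGAM stayed at or below 0.41 TPM. CD74 and LCP1, which leukocytes also express, were at 184 to 463 TPM and 9.46 to 71.9 TPM. Of the receptors that the line is named for lacking, ESR1 and PGR were at or below 0.22 TPM, while ERBB2 was at 27.5 to 37.3 TPM. Fold changes below are log2 values fitted on normalised reads, with their standard error (SE), and adjusted p-values come from edgeR's quasi-likelihood test with Benjamini-Hochberg adjustment over all 15233 tested genes, read at 0.05. Levels are in TPM, which also allows for the lengths of the transcripts used, so a ratio of TPM can differ from the fitted fold change.

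The ATF4-arm genes that passed moved in both directions. PHGDH, the first enzyme of serine synthesis, rose in both altered lines. AARS rose and CEBPB fell in shAPT1. In APT1wt, ATF3, CEBPG, PPP1R15A and PSPH fell and DDIT4 rose. ATF4 mRNA and DDIT3, the gene of the pro-apoptotic factor CHOP, did not pass in any of the 3 comparisons.

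By count, 3 of the 20 ATF4-arm genes passed in shAPT1 against control, 2 higher and 1 lower, which is 15%, beside 24.4% of all tested genes (12.8% higher, 11.6% lower). In APT1wt against control 6 passed, 2 higher and 4 lower, or 30%, beside 23.4% of all tested genes (11.8% higher, 11.6% lower). The direct comparison of shAPT1 with APT1wt gave 8, of which 5 were higher in shAPT1 and 3 lower, or 40%, beside 25.1% of all tested genes (12.7% higher, 12.4% lower). With scaling by library totals alone, the direct comparison had 6 arm genes higher and 1 lower, and 2628 of all genes higher and 1327 lower against 1941 and 1888 in the main fit. The median log2 change of the arm was 0.14, -0.04 and 0.16 in the 3 comparisons, where that of all tested genes was -0.00, -0.00 and 0.00. The last of the 3 shares was the furthest above its background. It fell to 4 genes without APT1wt replicate 2 or without APT1wt replicate 3 and to 5 without shAPT1 replicate 2. Calls over all tested genes fell from 3829 to 2573, 2667 and 2770 in the same 3 leave-outs.

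**Figure D1:**
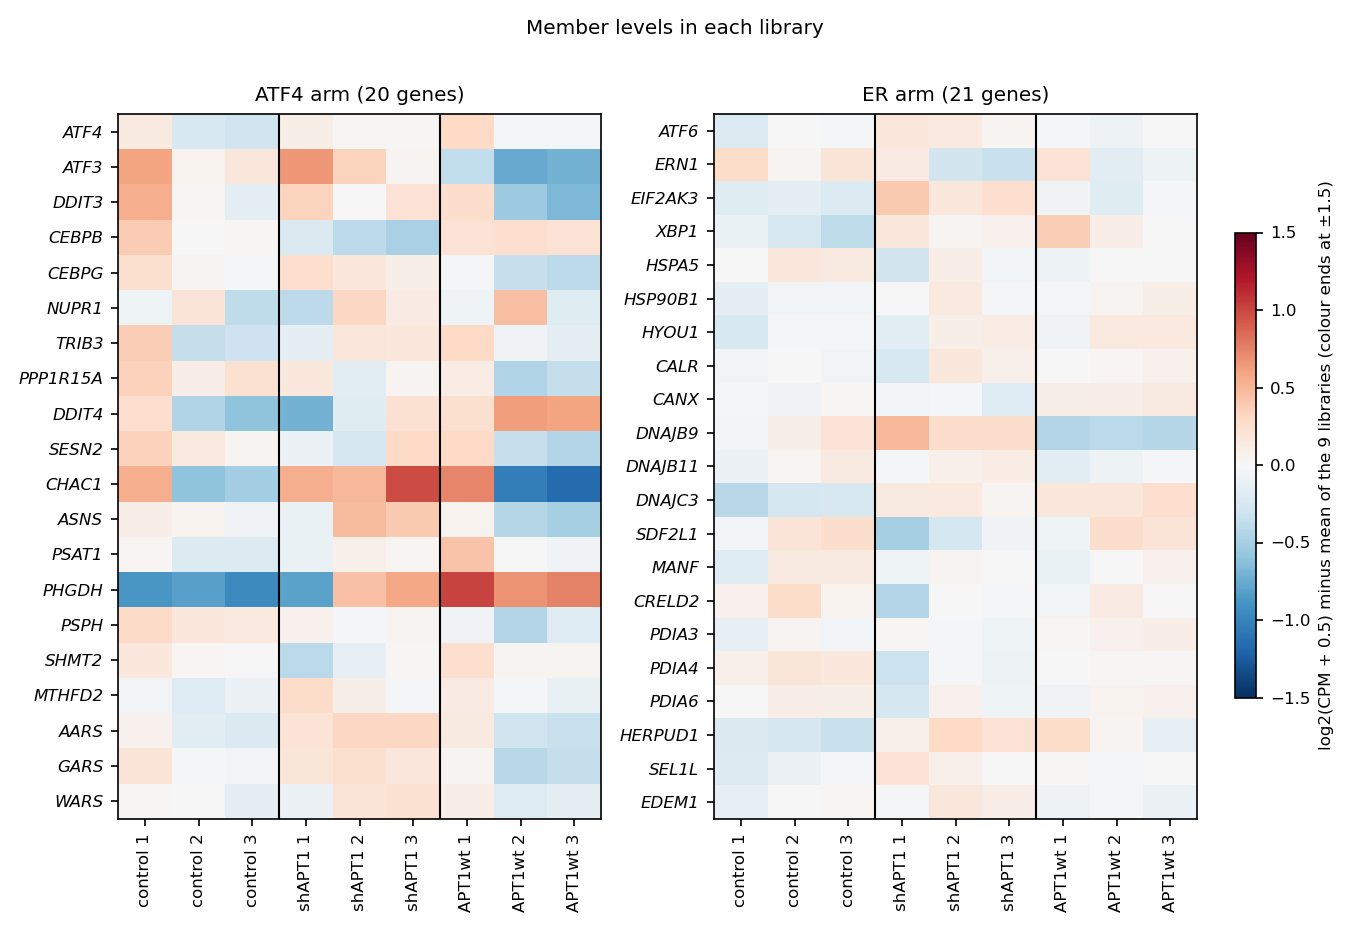
Each cell is the level of 1 gene in 1 library, as log2(CPM + 0.5) minus the mean of the 9 libraries (CPM, a share of the library's reads), for the 20 ATF4-arm genes and the 21 ER-arm genes, with the libraries in columns. In the ATF4 arm control replicate 1 and APT1wt replicate 1 are high for most genes of the arm, PHGDH is low in control and in shAPT1 replicate 1, and most ER-arm rows are pale.

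ATF4, the transcription factor at the head of the arm (chr22:39519695-39522685, GRCh38), was at 181, 148 and 141 TPM in control, 195, 174 and 186 TPM in shAPT1 and 208, 170 and 164 TPM in APT1wt. The 3 groups overlapped. The log2 change was 0.16 ± 0.11 (SE) in shAPT1 (edgeR adjusted p = 0.32) and 0.21 ± 0.11 in APT1wt (edgeR adjusted p = 0.18). Without control replicate 1, the highest of the controls, both passed, at 0.30 (edgeR adjusted p = 0.040) and 0.36 (edgeR adjusted p = 0.020).

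ATF3, a stress-induced repressor and activator of transcription (chr1:212565334-212620777), was at 7.62, 5.93 and 8.56 TPM in control, 8.65, 7.89 and 6.36 TPM in shAPT1 and 3.87, 4.71 and 2.31 TPM in APT1wt. Every APT1wt library lay below every other library. ATF3 fell by 0.99 ± 0.22 (SE) on the log2 scale in APT1wt against control (edgeR adjusted p = 0.0043) and was 1.05 ± 0.21 higher in shAPT1 than in APT1wt (edgeR adjusted p = 0.0024), while shAPT1 against control gave 0.07 ± 0.20 (edgeR adjusted p = 0.85). Both calls held under all 19 alternatives tried for each. The gene had 33.0 to 110.0 reads per library, few beside most of the 41 genes.

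DDIT3 was at 21.5, 15.1 and 13.6 TPM in control, 20.2, 15.1 and 19.05 TPM in shAPT1 and 17.9, 10.3 and 8.78 TPM in APT1wt. The groups overlapped, and the first library of APT1wt lay within the control range. The log2 change was 0.02 ± 0.23 (SE) in shAPT1 (edgeR adjusted p = 0.96) and -0.43 ± 0.24 in APT1wt (edgeR adjusted p = 0.22), and shAPT1 against APT1wt gave 0.45 ± 0.24 (edgeR adjusted p = 0.19). Without APT1wt replicate 1 the latter 2 became -0.83 (edgeR adjusted p = 0.015) and 0.85 (edgeR adjusted p = 0.012). The small positive value in shAPT1 turned negative without control replicate 2, control replicate 3 or shAPT1 replicate 1, at -0.05, -0.13 and -0.05.

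CEBPB and CEBPG encode C/EBP proteins, which pair with ATF4 on its element. CEBPB (chr20:50190734-50192689) was at 46.8, 38.1 and 38.1 TPM in control, 34.1, 28.5 and 28.2 TPM in shAPT1 and 42.8, 44.9 and 42.5 TPM in APT1wt. All shAPT1 libraries lay below the rest. It fell by 0.51 ± 0.10 (SE) on the log2 scale in shAPT1 against control (edgeR adjusted p = 0.0020) and was 0.60 ± 0.10 lower than in APT1wt, a log2 change of -0.60 (edgeR adjusted p = 6.0e-04). With a correction for GC content and length, the change against control was -0.31 and did not pass (edgeR adjusted p = 0.073).

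CEBPG (chr19:33373330-33382686) went the other way between the lines. It was at 24.98, 23.2 and 21.9 TPM in control, 28.5, 24.6 and 24.9 TPM in shAPT1 and 21.2, 17.2 and 16.4 TPM in APT1wt. All 3 APT1wt libraries lay below the other 6, with a log2 change of -0.34 ± 0.10 (SE) against control (edgeR adjusted p = 0.022) and 0.42 ± 0.10 for shAPT1 against APT1wt (edgeR adjusted p = 0.0062). The first call was lost without control replicate 1, APT1wt replicate 2 or APT1wt replicate 3 (edgeR adjusted p = 0.11, 0.096 and 0.11), and after subtracting the change of neighbouring genes (-0.19, edgeR adjusted p = 0.18). The second held under all 19 alternatives.

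PPP1R15A (GADD34), which brings a phosphatase to eIF2 and so ends the block on translation, was at 115, 103 and 112 TPM in control, 112, 84.4 and 104 TPM in shAPT1 and 100, 69.7 and 71.7 TPM in APT1wt. The APT1wt libraries lay below the controls, and the log2 change was -0.44 ± 0.12 (SE; edgeR adjusted p = 0.020). The call was lost without control replicate 1 or 3 (edgeR adjusted p = 0.089 and 0.055) and without APT1wt replicate 2 or 3 (edgeR adjusted p = 0.10 and 0.098). It was also lost after subtracting the change of neighbouring genes (-0.36, edgeR adjusted p = 0.074).

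DDIT4 (REDD1), an inhibitor of mTORC1 signalling, was at 21.3, 13.6 and 12.1 TPM in control, 11.5, 16.3 and 23.2 TPM in shAPT1 and 21.8, 28.7 and 27.9 TPM in APT1wt. APT1wt lay above control, by a log2 change of 0.73 ± 0.22 (SE; edgeR adjusted p = 0.028), while shAPT1 overlapped APT1wt, at a log2 difference of -0.67 ± 0.22 (edgeR adjusted p = 0.039). Neither call passed with DESeq2 (DESeq2 adjusted p = 0.099 and 0.14). The first was also lost without control replicate 2 or 3 or APT1wt replicate 2 or 3 (edgeR adjusted p = 0.11, 0.13, 0.094 and 0.096). The second was lost without shAPT1 replicate 1 or 2 or APT1wt replicate 2 or 3 (edgeR adjusted p = 0.10, 0.10, 0.12 and 0.12).

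The remaining regulators NUPR1, TRIB3, SESN2 and CHAC1 passed in no comparison. CHAC1, a glutathione-degrading enzyme, had the widest spread, at 3.37, 1.45 and 2.00 TPM in control, 3.73, 3.57 and 5.65 TPM in shAPT1 and 4.45, 1.01 and 0.746 TPM in APT1wt. Its log2 change was 0.93 ± 0.50 (SE) in shAPT1 against control (edgeR adjusted p = 0.20) and 1.03 ± 0.49 against APT1wt (edgeR adjusted p = 0.14). It had 10.0 to 84.0 reads per library and NUPR1 had 9.07 to 24.6. With SE of 0.50 and 0.37 in shAPT1 against control, changes of moderate size were not detectable in either gene.

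Of the 6 enzymes of serine, one-carbon and asparagine synthesis, PHGDH had the largest change of all 41 genes in both comparisons with control. PHGDH (chr1:119648411-119744226) was at 7.61, 7.77 and 6.86 TPM in control, 8.06, 18.95 and 22.4 TPM in shAPT1 and 27.5, 21.8 and 22.1 TPM in APT1wt. All 6 altered libraries lay above the controls, though the first shAPT1 library lay just above them. PHGDH rose by 1.14 ± 0.26 (SE) on the log2 scale in shAPT1 (edgeR adjusted p = 0.0053) and by 1.76 ± 0.25 in APT1wt (edgeR adjusted p = 1.8e-04). Every alternative kept both calls, and the shAPT1 value ran from 0.90 without shAPT1 replicate 3 to 1.45 without shAPT1 replicate 1. The difference between the lines was -0.62 ± 0.23 and did not pass (edgeR adjusted p = 0.059). It passed without shAPT1 replicate 1, at -0.32 (edgeR adjusted p = 0.035), and without shAPT1 replicate 3, at -0.86 (edgeR adjusted p = 0.018).

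The next 2 enzymes of the same pathway did not share this rise. PSAT1, which follows PHGDH, was at 74.6 to 84.4 TPM in control, 84.6 to 93.8 TPM in shAPT1 and 80.7 to 113 TPM in APT1wt and passed in no comparison. PSPH (chr7:56011051-56051604), which makes serine in the last step, was at 45.2, 45.6 and 40.0 TPM in control, 38.5, 36.1 and 40.5 TPM in shAPT1 and 36.0, 28.4 and 29.8 TPM in APT1wt. The APT1wt libraries were the 3 lowest, at a log2 change of -0.42 ± 0.09 (SE) against control (edgeR adjusted p = 0.0044). SHMT2, the mitochondrial enzyme that takes a one-carbon unit from serine, was at 123 to 171 TPM in shAPT1 and 160 to 173 TPM in APT1wt. Its log2 difference of -0.27 (edgeR adjusted p = 0.048) was lost under 12 of 19 alternatives, among them each of the leave-outs of shAPT1 replicates 1 and 2 and of the 3 APT1wt libraries (edgeR adjusted p = 0.066 to 0.19), and was -0.16 without shAPT1 replicate 1. MTHFD2, the next mitochondrial enzyme, was at 49.7 to 51.8 TPM in control and 60.1 to 73.7 TPM in shAPT1 without overlap, with a log2 change of 0.23 (edgeR adjusted p = 0.074). It passed without shAPT1 replicate 3, at 0.30 (edgeR adjusted p = 0.021), and with the neighbouring genes correction described below, at 0.36 in shAPT1 (edgeR adjusted p = 0.011) and 0.32 in APT1wt (edgeR adjusted p = 0.025).

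ASNS (asparagine synthetase, chr7:97852118-97872542) was at 36.0, 33.3 and 31.4 TPM in control, 37.3, 46.7 and 46.8 TPM in shAPT1 and 37.3, 23.3 and 23.3 TPM in APT1wt. In each altered line 2 libraries stood away from control in opposite directions while the first library stayed near it. Neither comparison with control passed, at 0.25 ± 0.15 (SE; edgeR adjusted p = 0.25) and -0.31 ± 0.15 (edgeR adjusted p = 0.17), and the direct difference was 0.56 ± 0.15 (edgeR adjusted p = 0.014). Leaving out shAPT1 replicate 1 gave 0.40 against control (edgeR adjusted p = 0.024), and leaving out APT1wt replicate 1 gave -0.51 (edgeR adjusted p = 0.021). The direct difference was lost without shAPT1 replicate 2 or APT1wt replicate 2 or 3 (edgeR adjusted p = 0.075, 0.067 and 0.077).

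The 3 tRNA synthetases load alanine, glycine and tryptophan onto their tRNAs. AARS (chr16:70252295-70289543) was at 48.5, 42.1 and 42.5 TPM in control, 58.0, 58.3 and 60.7 TPM in shAPT1 and 49.4, 38.9 and 36.6 TPM in APT1wt. Every shAPT1 library lay above all others. The log2 change was 0.38 ± 0.11 (SE) against control (edgeR adjusted p = 0.021), lost without control replicate 2 or 3 or shAPT1 replicate 2 (edgeR adjusted p = 0.074, 0.091 and 0.067), and 0.43 ± 0.11 against APT1wt (edgeR adjusted p = 0.010), lost without APT1wt replicate 2 or 3 (edgeR adjusted p = 0.059 and 0.062).

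GARS (chr7:30594681-30634033) was at 175, 157 and 145 TPM in control, 175, 194 and 171 TPM in shAPT1 and 161, 107 and 116 TPM in APT1wt. It was higher in shAPT1 than in APT1wt by 0.43 ± 0.10 (SE) on the log2 scale (edgeR adjusted p = 0.0074), with no overlap, and passed in neither comparison with control. The call was lost with an offset for transcript length, at 0.41 (edgeR adjusted p = 0.063), with the authors' deposited gene table, at 0.43 (limma adjusted p = 0.053), and with the neighbouring genes correction given below. WARS was at 90.5 to 132 TPM over the 9 libraries and passed in no comparison.

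**Figure D2:**
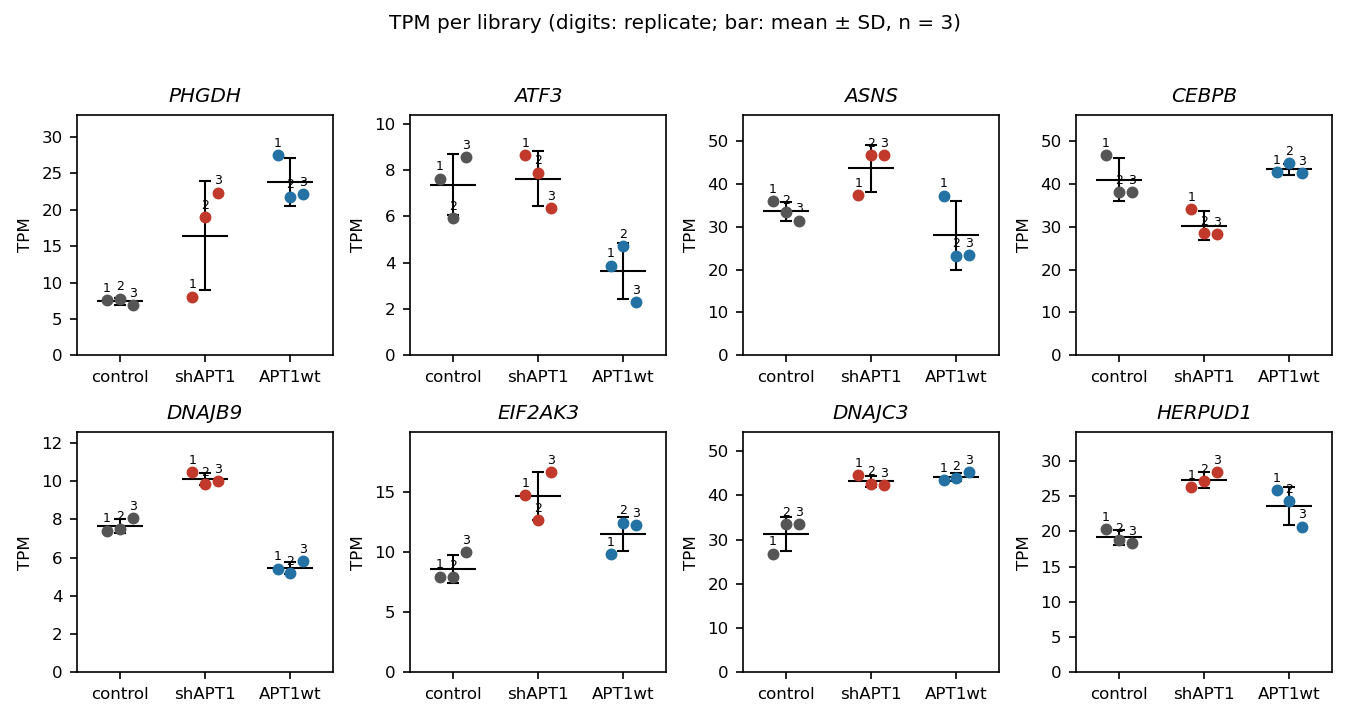
TPM in each library for 8 genes with a call, 4 of the ATF4 arm above and 4 of the ER arm below, with points numbered by replicate and bars for the mean ± SD (n = 3). ATF3 is low in all 3 APT1wt libraries, DNAJB9 separates all 3 groups, and the first libraries of shAPT1 (PHGDH) and APT1wt (ASNS) stand apart from their group.

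ATF3, CEBPG, ASNS, AARS and GARS were the 5 ATF4-arm genes that were higher in shAPT1 than in APT1wt. They were 5 of the 6 with the C/EBP-ATF element printed above before at least 1 RefSeq start, whether or not that start was in use. The sixth, CHAC1, had a log2 difference of 1.03 that did not pass (edgeR adjusted p = 0.14). Over these 6 genes the log2 differences ran from 0.42 to 1.05 with a median of 0.49. Among the 11 ATF4-arm genes with a promoter entry and no such element, 0 were higher and 2 lower, and the median was 0.02. Of all tested genes, 12.7% were higher and 12.4% lower in this comparison, and HERPUD1, the ER-arm gene with the same element, did not pass, at 0.13 (edgeR adjusted p = 0.40). Against control the 6 had 1 higher and 0 lower call in shAPT1, with a median of 0.20, and 0 higher and 2 lower calls in APT1wt, with a median of -0.29. The split by element depended on the APT1wt libraries. Without APT1wt replicate 1, CHAC1 passed in the direct comparison, and DDIT3 and PPP1R15A, without the element, were also higher. Without APT1wt replicate 2 or 3, only ATF3, CEBPG and GARS of the 6 were higher. Over all tested genes the higher calls fell from 1941 to 1600, 1317 and 1370 without APT1wt replicates 1, 2 and 3. The split was noticed after the values had been seen and is a description of these genes, with no test, and ASNS and GARS are on chromosome 7, treated below.

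The ATF4 arm also varied within the groups. In control replicate 1, 18 of the 20 genes had the highest level of their group, and in APT1wt replicate 1 it was 17 of 20, where 38.0% and 36.6% of all tested genes did. In shAPT1 replicate 1 it was 8 of 20, where 40.4% of all tested genes did. The arm's summed TPM was 1152, 1041 and 1015 in control, 1132, 1132 and 1216 in shAPT1 and 1216, 972 and 971 in APT1wt. Against the mean of the 9 libraries, the median gene of the arm was at 0.22, -0.00 and -0.11 (log2) in control, -0.01, 0.12 and 0.14 in shAPT1 and 0.17, -0.25 and -0.19 in APT1wt. What set these 2 libraries apart was not tested.

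Without APT1wt replicate 1, APT1wt against control had 11 ATF4-arm calls instead of 6, with DDIT4 and PHGDH higher and 9 lower (ASNS, ATF3, CEBPG, CHAC1, DDIT3, GARS, PPP1R15A, PSPH and SESN2), among them CHAC1 at -1.41 and PPP1R15A at -0.63. The direct comparison then had 11 calls instead of 8, with 9 higher in shAPT1 and 2 lower. Over all tested genes the calls fell in the same step, from 3568 to 2983 and from 3829 to 3122. Leaving out APT1wt replicate 2 or 3 instead left 3 arm calls against control, PHGDH higher and ATF3 and PSPH lower, and 2423 and 2298 calls over all genes. In shAPT1 against control, the count rose from 3 to 5 without shAPT1 replicate 1 or 3 and fell to 2 without control replicate 2 or 3 or shAPT1 replicate 2. Calls over all genes went from 3719 to 3864 and 4096 in the first 2 of these leave-outs and to 2725, 2616 and 2690 in the other 3. With both control replicate 1 and APT1wt replicate 1 left out, a choice made after seeing the levels of these same genes and so a description only, the 3 comparisons had 7, 9 and 11 arm calls, and 2815, 2223 and 3067 over all genes.

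In the ER arm, DNAJC3, HERPUD1 and XBP1 rose in both lines, EIF2AK3 and SEL1L rose in shAPT1, SDF2L1 and PDIA4 fell in shAPT1, and DNAJB9 fell in APT1wt. The most abundant chaperones, HSPA5, HSP90B1, CALR and CANX, did not pass in either comparison with control. In shAPT1 against control 7 of the 21 genes passed, 5 higher and 2 lower, or 33.3% beside the background of 24.4%. In APT1wt against control 4 passed, 3 higher and 1 lower, or 19% beside 23.4%, and in shAPT1 against APT1wt 4 passed, 2 higher and 2 lower, or 19% beside 25.1%. The arm's median log2 change was 0.03, 0.03 and -0.04. Of the 7 genes with the ER stress response element, XBP1 was the 1 that passed against control, in both lines, and CANX the 1 that passed in the direct comparison. With scaling by library totals alone, the split became 6 higher and 1 lower in shAPT1 against control and 4 higher and 0 lower in the direct comparison. All tested genes moved the same way under that scaling. They went from 1951 higher and 1768 lower to 2225 and 1485 in shAPT1 against control, and from 1941 and 1888 to 2628 and 1327 in the direct comparison. In shAPT1 against control the 7 calls fell to 3 without control replicate 2 and to 4 without control replicate 3. Calls over all tested genes fell from 3719 to 2725 and 2616 in these steps. In APT1wt against control the 4 calls fell to 2 without control replicate 3, and those over all genes from 3568 to 2466. In the direct comparison the 4 calls fell to 2 without APT1wt replicate 2 or 3, and those over all genes from 3829 to 2573 and 2667.

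**Figure D3:**
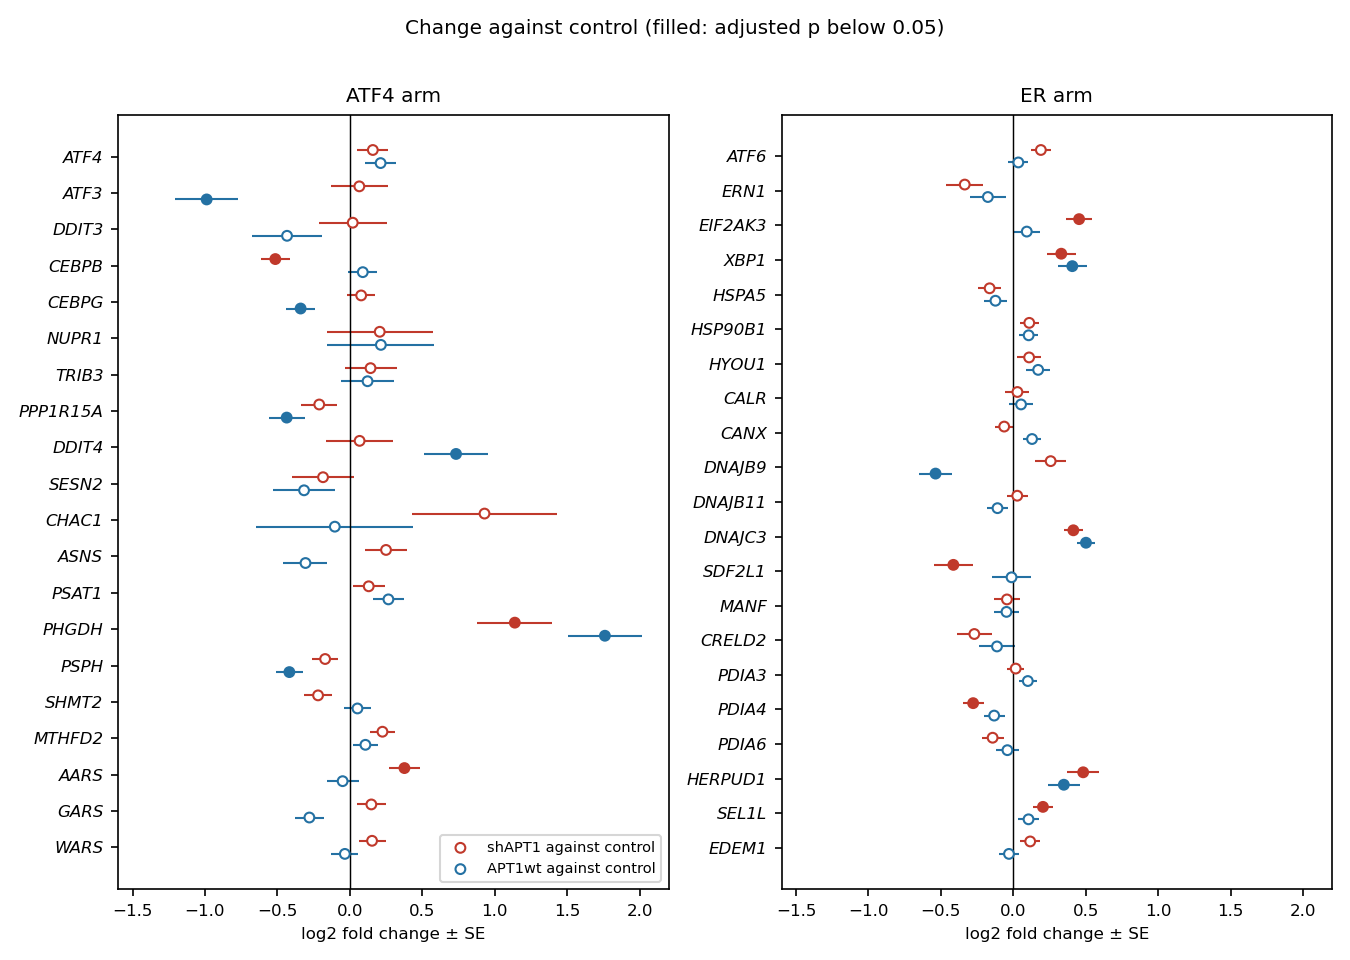
Log2 fold change ± SE against control for every gene, shAPT1 in red and APT1wt in blue, with filled points where the edgeR adjusted p was below 0.05. PHGDH has the largest values of both lines (1.14 and 1.76), ATF3 the lowest (-0.99 in APT1wt), and all ER-arm points lie between -0.54 and 0.50.

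EIF2AK3, the eIF2 kinase of the ER membrane (chr2:88556741-88627576), was at 7.96, 7.90 and 9.98 TPM in control, 14.7, 12.7 and 16.7 TPM in shAPT1 and 9.86, 12.4 and 12.2 TPM in APT1wt. All shAPT1 libraries lay above the rest. The log2 change was 0.45 ± 0.09 (SE) against control (edgeR adjusted p = 0.0020) and 0.36 ± 0.09 against APT1wt (edgeR adjusted p = 0.0080). With an offset for transcript length these became 0.70 (edgeR adjusted p = 0.0042) and 0.27 (edgeR adjusted p = 0.20). The other sensors did not pass in any comparison as fitted. ATF6 was at 17.3 to 21.2 TPM in control and 22.9 to 24.9 TPM in shAPT1 (0.19, edgeR adjusted p = 0.055), and ERN1 was at 7.50 to 10.5 TPM in control and 5.03 to 11.9 TPM in shAPT1 (-0.34, edgeR adjusted p = 0.067). Under some alternatives they passed. ATF6 did so in shAPT1 against control at 0.23 without shAPT1 replicate 3 (edgeR adjusted p = 0.028) and at 0.21 with the neighbouring genes correction described below (edgeR adjusted p = 0.034). ERN1 did so at -0.40 with that correction (edgeR adjusted p = 0.028) and at -0.49 without shAPT1 replicate 1 (edgeR adjusted p = 0.0038), a leave-out that also gave -0.31 in the direct comparison (edgeR adjusted p = 0.044).

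XBP1 (chr22:28794555-28800597) was at 40.5, 38.0 and 36.0 TPM in control, 49.3, 42.7 and 49.1 TPM in shAPT1 and 53.5, 47.8 and 40.7 TPM in APT1wt. Both altered lines lay above control, APT1wt replicate 3 only just. XBP1 rose by 0.33 ± 0.10 (SE) on the log2 scale in shAPT1 (edgeR adjusted p = 0.025) and 0.41 ± 0.10 in APT1wt (edgeR adjusted p = 0.0083). With an offset for transcript length neither passed, at 0.23 (edgeR adjusted p = 0.16) and 0.32 (edgeR adjusted p = 0.061). The shAPT1 call was also lost without control replicate 2 or 3 or shAPT1 replicate 2 (edgeR adjusted p = 0.068, 0.12 and 0.051), and the APT1wt call without control replicate 3 (edgeR adjusted p = 0.052).

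Splicing of XBP1 by ERN1 removes 26 bases and shifts the reading frame to the active form. The intron is shown in capitals with 2 flanking bases on each side, as annotated in GENCODE 29 on GRCh38.
XBP1 intron, chr22:28796124-28796149, minus strand: agCACTCAGACTACGTGCACCTCTGCAGca
Shares are of the XBP1 reads that Salmon assigned to protein-coding transcripts covering the site. A retained-intron transcript that keeps the 26 bases was left out. The share of the 2 transcripts without the intron was 15.8%, 22.2% and 32.4% in control, 42.5%, 25.2% and 15.5% in shAPT1 and 33.2%, 12.8% and 23.7% in APT1wt. The libraries of each group spread over the range of the others. Means were 23.5% ± 8.4 (SD, n = 3), 27.8% ± 13.7 and 23.2% ± 10.2, and the exact two-sided permutation tests gave p = 0.7 for shAPT1 against control, p = 1 for APT1wt against control and p = 0.6 for shAPT1 against APT1wt, where the smallest p that 3 against 3 libraries allow is 0.1. On TPM in place of reads the means were 31.3% ± 9.09, 30.1% ± 11.7 and 26.9% ± 7.81, so that shAPT1 lay below control instead of above it, with exact permutation p = 0.9, 0.6 and 0.7. The shares of reads rest on 79.0 to 338.2 estimated reads per library for the spliced form. Salmon shared these out among overlapping transcripts, and the 2 spliced ones are 1794 and 1131 bases long. The longer had 4.3e-04 reads in control replicate 1 and 284 in shAPT1 replicate 1, and the shorter had 88.1 and 0.98. A change of the spliced share was therefore not detectable here.

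HSPA5 (BiP, chr9:125234853-125241330), the chaperone that holds the 3 sensors inactive, was at 272, 321 and 311 TPM in control, 247, 302 and 293 TPM in shAPT1 and 264, 284 and 272 TPM in APT1wt. The groups overlapped. The log2 change was -0.16 ± 0.08 (SE) in shAPT1 (edgeR adjusted p = 0.17), which among the alternatives tried passed only without shAPT1 replicate 2, at -0.25 (edgeR adjusted p = 0.047), and -0.12 ± 0.08 in APT1wt (edgeR adjusted p = 0.31). HSP90B1, HYOU1, CALR, DNAJB11, MANF and CRELD2 also passed in no comparison, with mean control levels from 19.7 TPM for CRELD2 to 713 TPM for CALR. CANX, a lectin chaperone, was at 662 to 709 TPM in control and 728 to 771 TPM in APT1wt. It was lower in shAPT1 than in APT1wt by a log2 difference of -0.19 (edgeR adjusted p = 0.030), which was lost under 10 of 19 alternatives, among them the leave-outs of shAPT1 replicate 3 and of each APT1wt library (edgeR adjusted p = 0.053 to 0.11), and was -0.051 after the neighbouring genes correction described below.

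DNAJB9 (ERdj4, chr7:108569568-108574850), a co-chaperone of HSPA5, was the ER-arm gene that differed most between the 2 altered lines. It was at 7.41, 7.52 and 8.05 TPM in control, 10.5, 9.85 and 10.0 TPM in shAPT1 and 5.42, 5.20 and 5.81 TPM in APT1wt. The 3 groups did not overlap, with shAPT1 highest and APT1wt lowest. It was 0.79 ± 0.11 (SE) higher on the log2 scale in shAPT1 than in APT1wt (edgeR adjusted p = 1.3e-04), a call kept under all 19 alternatives. In APT1wt against control it was -0.54 ± 0.11 (edgeR adjusted p = 0.0033). In shAPT1 against control it was 0.26 ± 0.11 and did not pass (edgeR adjusted p = 0.095). 

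DNAJC3 (p58IPK, chr13:95677139-95794989), a co-chaperone known to inhibit eIF2 kinases, was at 26.8, 33.6 and 33.4 TPM in control, 44.6, 42.7 and 42.3 TPM in shAPT1 and 43.5, 43.9 and 45.3 TPM in APT1wt. Both lines lay above control and close to each other. DNAJC3 rose by 0.41 ± 0.07 (SE) on the log2 scale in shAPT1 (edgeR adjusted p = 3.8e-04) and 0.50 ± 0.07 in APT1wt (edgeR adjusted p = 7.3e-05). SDF2L1, a partner of ER DNAJ proteins, was at 26.7, 33.9 and 35.0 TPM in control, 21.3, 23.9 and 29.7 TPM in shAPT1 and 26.9, 35.1 and 32.6 TPM in APT1wt. The groups overlapped, and its log2 changes of -0.41 ± 0.14 against control (edgeR adjusted p = 0.038) and -0.40 ± 0.13 against APT1wt (edgeR adjusted p = 0.041) were lost under 8 and 11 of 19 alternatives. The first did not pass without control replicate 2 or 3 or shAPT1 replicate 1 or 2 (edgeR adjusted p = 0.097 to 0.16), nor the second without shAPT1 replicate 1 or 2 or APT1wt replicate 2 or 3 (edgeR adjusted p = 0.10 to 0.14). With a correction for GC content and length the first was -0.19.

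Among the disulfide isomerases, PDIA3 and PDIA6 passed in no comparison. PDIA4 (chr7:149003062-149028641) was at 149, 174 and 167 TPM in control, 125, 143 and 153 TPM in shAPT1 and 144, 151 and 145 TPM in APT1wt. The shAPT1 libraries overlapped the controls only through control replicate 1 and shAPT1 replicate 3. PDIA4 fell by 0.28 ± 0.07 (SE) on the log2 scale in shAPT1 (edgeR adjusted p = 0.012), and the call was lost without control replicate 2 or 3 (edgeR adjusted p = 0.053 and 0.051).

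Of the genes of ER-associated degradation, HERPUD1 and SEL1L, both parts of the membrane complex around the ubiquitin ligase SYVN1, rose in shAPT1. HERPUD1 (chr16:56932048-56944863) was at 20.3, 18.8 and 18.3 TPM in control, 26.2, 27.1 and 28.4 TPM in shAPT1 and 25.8, 24.2 and 20.6 TPM in APT1wt. The 3 groups did not overlap. The log2 change of 0.48 ± 0.11 (SE) in shAPT1 (edgeR adjusted p = 0.0053) held under all 19 alternatives. That of 0.35 ± 0.11 in APT1wt (edgeR adjusted p = 0.034) was lost under 10 of them, including the leave-out of any control library or of APT1wt replicate 1 or 2 (edgeR adjusted p = 0.063 to 0.16), with 0.23 without APT1wt replicate 1. SEL1L was at 26.2, 25.9 and 33.4 TPM in control, 41.9, 36.5 and 36.8 TPM in shAPT1 and 28.0, 31.6 and 33.2 TPM in APT1wt. Its shAPT1 libraries were the 3 highest, with a log2 change of 0.20 ± 0.07 (edgeR adjusted p = 0.044) that was lost without control replicate 1 or 2 or shAPT1 replicate 1 or 2 (edgeR adjusted p = 0.17, 0.10, 0.086 and 0.087) or with the neighbouring genes correction (edgeR adjusted p = 0.080). It was 0.36 with the offset for transcript length and 0.10 with the GC content and length correction. EDEM1, a lectin that passes misfolded glycoproteins on for degradation, passed in no comparison.

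Genes of some chromosomes moved together, and 6 of the 41 genes lie on chromosomes 7 and 13, where this was marked. On chromosome 7, which holds ASNS, PSPH, GARS, DNAJB9 and PDIA4, 756 genes were tested. Their median log2 change was -0.14 in shAPT1 (45 higher, 163 lower) and -0.25 in APT1wt (23 higher, 273 lower). On chromosome 13, which holds DNAJC3, the median of 271 tested genes was 0.30 in shAPT1 (140 higher, 4 lower) and 0.66 in APT1wt (202 higher, 1 lower).

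When the shared change of its 50 closest tested genes to either side was subtracted from each library, DNAJC3 went from 0.50 to -0.07 in APT1wt (edgeR adjusted p = 0.46) and from 0.41 to 0.16 in shAPT1 (edgeR adjusted p = 0.057). In APT1wt against control PSPH went to -0.12 (edgeR adjusted p = 0.39). PDIA4 in shAPT1 went to -0.14 (edgeR adjusted p = 0.14), and GARS in the direct comparison went to 0.13 (edgeR adjusted p = 0.40). After this step none of these 4 genes passed in the comparisons just named, while DNAJC3 passed in the direct comparison at 0.23 (edgeR adjusted p = 0.0092). DNAJB9 still differed between the lines at 0.68 (edgeR adjusted p = 2.2e-04), passed in shAPT1 at 0.39 (edgeR adjusted p = 0.0090) and stood at -0.29 in APT1wt (edgeR adjusted p = 0.063). ASNS kept 0.47 in the direct comparison (edgeR adjusted p = 0.039), with 0.44 in shAPT1 (edgeR adjusted p = 0.051) and -0.03 in APT1wt (edgeR adjusted p = 0.93). DNA copy number was not measured, and its part in these changes was not tested.

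**Figure D4:**
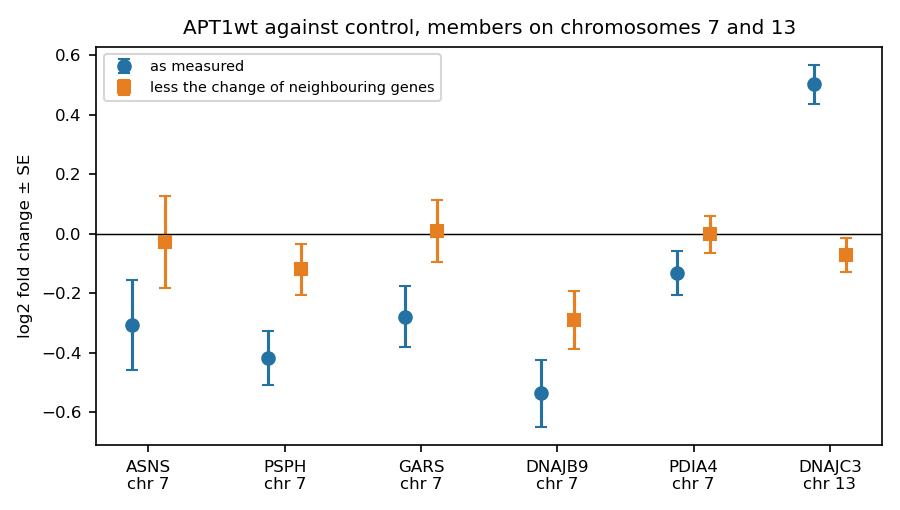
Log2 fold change ± SE in APT1wt against control for the 6 genes on chromosomes 7 and 13, as measured (circles) and after subtracting the shared change of its 50 closest tested genes to either side (squares). DNAJC3 moves from 0.50 to -0.07 and PSPH from -0.42 to -0.12, while DNAJB9 stays below 0 at -0.29.

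Other genes of these pathways were counted from separate lists. Of 22 tested genes tied to the ATF4 response, 8 were higher and 2 lower in shAPT1 and 3 higher and 2 lower in APT1wt, and 6 were higher and 3 lower in the direct comparison, with medians of 0.26, 0.11 and 0.03. These were 45.5%, 22.7% and 40.9% of the list, beside 24.4%, 23.4% and 25.1% of all tested genes. The cysteine-producing enzyme CTH rose by 1.11 ± 0.29 (SE) on the log2 scale in shAPT1 (edgeR adjusted p = 0.011), and the neutral amino acid transporter SLC1A4 by 0.88 ± 0.13 (edgeR adjusted p = 3.0e-04). SESN3 rose by 1.94 ± 0.32 (edgeR adjusted p = 5.3e-04) from levels of 0.11 to 0.17 TPM. In APT1wt the bZIP factor JDP2 was 1.32 ± 0.24 higher (edgeR adjusted p = 0.0013), the arginine transporter SLC7A1 was 0.82 ± 0.06 higher (edgeR adjusted p = 2.6e-07), and the cystine transporter SLC7A11 was lower at -0.89 ± 0.23 (edgeR adjusted p = 0.011). SLC7A1 lies on chromosome 13, where the median of 271 tested genes in APT1wt was 0.66 (202 higher, 1 lower).

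Among 17 other cytosolic tRNA synthetases, 3 were higher and 0 lower in shAPT1 and 4 higher and 0 lower in APT1wt, or 17.6% and 23.5% beside 24.4% and 23.4% of all tested genes. The largest rise in both was that of NARS, at 0.61 ± 0.09 (SE; edgeR adjusted p = 1.6e-04) and 0.42 ± 0.09 (edgeR adjusted p = 0.0031). Of 12 genes for the other eIF2 kinases, eIF2, eIF2B and the adaptor PPP1R15B, 1 was higher and 1 lower in shAPT1, and 0 were higher and 1 lower in APT1wt, or 16.7% and 8.33%. EIF2AK1, the heme-regulated eIF2 kinase, was the latter, at -0.23 ± 0.07 (edgeR adjusted p = 0.023). It lies on chromosome 7, where the median of 756 tested genes in APT1wt was -0.25 (23 higher, 273 lower).

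Of 36 other ER folding and degradation genes, 6 were higher and 3 lower in shAPT1 and 5 higher and 3 lower in APT1wt, or 25% and 22.2% beside 24.4% and 23.4% of all tested genes. TRAM1, a protein of the ER translocation channel, rose by 0.61 ± 0.08 (SE) on the log2 scale in shAPT1 (edgeR adjusted p = 6.5e-05). MBTPS2, the membrane protease that makes the second cut in ATF6, was lower in both lines, at -0.32 ± 0.07 in shAPT1 (edgeR adjusted p = 0.0042) and -0.90 ± 0.07 in APT1wt (edgeR adjusted p = 8.0e-07). It lies on the X chromosome, where the median of 469 tested genes was -0.13 in shAPT1 and -0.37 in APT1wt. WFS1, an ER membrane protein, was 0.44 ± 0.14 higher in shAPT1 (edgeR adjusted p = 0.034) and -0.44 ± 0.15 in APT1wt (edgeR adjusted p = 0.046), and the lines differed by 0.88 ± 0.14 (edgeR adjusted p = 5.4e-04).

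Of 15 cytosolic and mitochondrial heat shock genes, 4 were higher and 1 lower in shAPT1 and 2 higher and 1 lower in APT1wt, or 33.3% and 20% beside 24.4% and 23.4% of all tested genes. HSPH1, a nucleotide exchange factor of HSP70, rose in both, by 0.72 ± 0.07 (SE; edgeR adjusted p = 7.4e-06) and 0.88 ± 0.07 (edgeR adjusted p = 1.2e-06) on the log2 scale. HSPB1, a small heat shock protein, was lower in both, at -0.34 ± 0.11 (edgeR adjusted p = 0.035) and -0.37 ± 0.11 (edgeR adjusted p = 0.026). HSPH1 lies on chromosome 13, where the median of 271 tested genes was 0.30 in shAPT1 and 0.66 in APT1wt. HSPB1 lies on chromosome 7, where the median of 756 tested genes was -0.14 in shAPT1 and -0.25 in APT1wt.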

How the data were processed

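Estimated counts (expected counts) and TPM per transcript were deposited by the authors for 9 libraries. They were made with Salmon on build GRCh38.p10 after FastQC, and DESeq2 is also named, per the submitters' processing notes. Versions and the counting of strand are not given in the sources used here. Effective lengths in the same deposited files served for the length offset. A second deposited file, a gene-level table, gives a signal that the authors put on a common scale in a way not stated.

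Counts were summed per gene and rounded. Genes kept by filterByExpr were scaled by TMM and fitted over all 9 libraries in R 4.3.3 with edgeR 4.0.16 (limma 3.58.1), and SE is the absolute log2 change divided by the root of F. The 41 genes and all lists were chosen with earlier results of these data known. Values in every library were given for ATF4, DDIT3, ASNS, HSPA5 and XBP1 and for up to 10 genes per arm past 0.05 in any comparison, by largest change against control. CHAC1 was added after its values were seen. From other lists, up to 3 of the genes with the largest changes past 0.05 were named.

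Alternatives were DESeq2 1.42.0, limma-voom, library totals alone, RLE scaling, no filter, a filter of 20 reads in 3 libraries, the length offset, a GC and length correction, a neighbouring genes correction, the deposited table as log2(value + 1) with limma, only the groups compared, a replicate block and each library left out. Leaving out control replicate 1 with APT1wt replicate 1 was chosen after seeing the data. Coordinates are from GENCODE 29. The fit was tested on simulated data. Tables and figures used Python 3.11.15.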

Additional observations from a re-analysis of the deposited data

How the results depend on the processing

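Counts of calls moved by over 1.5 times as follows, and the cause was not tested. Over all tested genes the length offset gave 2307, 2230 and 2373 calls for shAPT1 and then APT1wt against control and for shAPT1 against APT1wt (3719, 3568 and 3829 as reported), the deposited table gave 2326, 2236 and 2357, the neighbouring genes correction gave 2343 for APT1wt against control, and leaving out control replicate 1 with APT1wt replicate 1 gave 2223 there. In the ATF4 arm, no filter gave 8 calls in shAPT1 and 10 in APT1wt against control, and the length offset and the deposited table gave 5 each for the direct comparison. Leaving out control replicate 1 with APT1wt replicate 1 gave 7 ATF4-arm calls in shAPT1 against control. In the ER arm, APT1wt against control had 2 calls with the length offset and 1 with the neighbouring genes correction, and the direct comparison had 1 with the length offset, 1 with the deposited table and 2 with only the groups compared.

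Leaving out 1 library gave 2616 to 4096, 2298 to 2983 and 2573 to 4104 calls over all genes, 2 to 5, 3 to 11 and 4 to 11 in the ATF4 arm, and 3 to 8, 2 to 4 and 2 to 5 in the ER arm, in the order above. Where a group kept 2 libraries, its spread was taken from all groups. The spliced XBP1 share ran from 18.999% to 27.3% in control, 20.4% to 33.9% in shAPT1 and 18.2% to 28.4% in APT1wt. With a replicate block the calls over all genes were 3754, 3625 and 3872, and the ATF4 arm had 4, 7 and 11 and the ER arm 7, 5 and 4. Deviations of same-numbered libraries correlated at -0.05 to 0.10, and the best match had the same number in 9 of 18 cases. The highest correlation, 0.10, was that of control replicate 1 with APT1wt replicate 1. These values cannot tell whether the numbers pair the libraries, and the labels do not say. Among the genes followed through all alternatives, the block brought DDIT3 in the direct comparison past the threshold (0.52, edgeR adjusted p = 0.031). It ended the calls of SEL1L in shAPT1 against control (edgeR adjusted p = 0.063) and of SHMT2 in the direct comparison (edgeR adjusted p = 0.066). The other arm calls that the block added were of genes not followed in this way. When low-count genes were not filtered out, edgeR's adjusted p also passed for ATF4 (0.022) and ASNS (0.018) in APT1wt and ASNS (0.035) in shAPT1 against control, and for DDIT3 in the direct comparison (0.034).

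Directions turned only for small changes and DNAJC3 among the genes followed through all alternatives. In shAPT1 against control, DDIT3 turned to -0.05 without control replicate 2, -0.13 without control replicate 3 and -0.05 without shAPT1 replicate 1, in a range over left-out libraries of -0.13 to 0.26, and HSPA5 turned to 0.069 with the neighbouring genes correction. In APT1wt against control, that correction turned HSPA5 to 0.075 and DNAJC3 to -0.070. In the direct comparison, ATF4 turned from -0.05 to 0.0064 with library totals and 0.14 with the neighbouring genes correction. Over left-out libraries it ran from -0.11 to 0.063 and turned without APT1wt replicate 1 (0.062), also with control replicate 1 left out (0.063). XBP1 turned from -0.08 to 0.052 with the neighbouring genes correction and ran from -0.16 to 0.043, turning in the same leave-outs. HSPA5 turned from -0.04 to 0.019 with library totals and 0.059 without shAPT1 replicate 1.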
